A study of Caenorhabditis elegans with 2 samples.

Results

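The superoxide dismutase genes sod-1, sod-2, sod-3, sod-4 and sod-5 and the catalase genes ctl-1, ctl-2 and ctl-3 were examined for binding of PHA-4 in Caenorhabditis elegans embryos. These 8 genes were taken by name from 19973 protein-coding genes of the nuclear chromosomes, by a rule that holds no binding value, although earlier results of these data were known when they were named. Every peak-list entry was taken whose summit lay between 2000 bp upstream of the gene's 5' end and its 3' end, a span called the window here. Weak entries that failed the authors' threshold were kept.

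PHA-4 was mapped by chromatin immunoprecipitation and sequencing (ChIP-seq) in 2 biological replicates, each from its own biosample, which form 1 group. The animals were mixed-stage embryos of pooled sexes and unknown age, of strain OP37, which carries unc-119(ed3) on chromosome III and the integrated array wgIs37. The array supplies PHA-4 tagged with eGFP, and both samples carry it. The labels give no control group, give the antibody only as pha-4, name whole organisms as the material, and do not state which regulatory sequence drives the tagged protein. Since whole embryos were used, binding in a few cells and weak binding in many cells cannot be told apart.

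Superoxide dismutases turn superoxide into hydrogen peroxide, and catalases turn hydrogen peroxide into water and oxygen. In C. elegans, sod-1 encodes the main cytosolic copper/zinc dismutase and sod-5 a minor one, sod-4 encodes an extracellular copper/zinc enzyme, and sod-2 and sod-3 encode mitochondrial manganese enzymes. The catalase genes lie in tandem: ctl-1 encodes a cytosolic and ctl-2 a peroxisomal enzyme, and ctl-3 is the neighbouring copy. PHA-4 is a FoxA-family factor that specifies the pharynx in the embryo and is needed in adults for the long life of diet-restricted animals, where dismutase genes have been reported to depend on it. The DAF-16 (FOXO) factor, a known activator of sod-3, recognises a related forkhead element.

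Entries were read from 4 lists: 30000 entries called on each replicate, 21931 called on both replicates together (pooled), and the 2177 that passed the authors' reproducibility threshold (thresholded). The signal is the peak caller's own value for an entry. Signals are not scaled between lists, so an entry is placed by its rank within its list, with 1 the strongest. Thresholded signals ran from 35.9 to 348, pooled signals began at 9.22, replicate 1 signals at 3.92 and replicate 2 signals at 5.25. The deposited -log10 q of each entry reaches 3.46 in the pooled list, 3.56 in replicate 1 and 3.50 in replicate 2, and values near 0 mark entries kept as background. The sources used here give no read totals, and the depth is unknown.

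The sequences shown are the bound stretch upstream of sod-1, the forkhead words upstream of sod-3 and sod-5, and the stretches beside the catalase genes. The pooled list had no entry at those words of sod-3 and sod-5. The sod-2 summit window, which holds TGTTTAC and TGTTTGC under a thresholded summit, is described below but not shown. All stretches shown are read 5' to 3' on the gene's own strand from the WBcel235 (ce11) assembly. Each upstream stretch ends at the base before the 5' end. In the sod-1 stretch, which spans 100 bases on each side of the thresholded summit (chrII:6974139-6974339, minus strand), capitals mark the match to TRTTKRY, the published PHA-4 consensus, in which R is A or G, K is G or T and Y is C or T.
sod-1 summit: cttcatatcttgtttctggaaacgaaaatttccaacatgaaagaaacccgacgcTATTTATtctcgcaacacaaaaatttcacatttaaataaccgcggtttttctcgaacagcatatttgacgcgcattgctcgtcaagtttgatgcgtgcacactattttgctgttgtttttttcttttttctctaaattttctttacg
In the 150 bases upstream of sod-3 (chrX:17092603-17092752, plus strand) and of sod-5 (chrII:4417483-4417632, plus strand), capitals mark TGTTTAC or TGTTTGC, words of the FoxA site. TGTTTAC is also the core of the DAF-16 element, so the letters do not separate the factors.
sod-3 upstream: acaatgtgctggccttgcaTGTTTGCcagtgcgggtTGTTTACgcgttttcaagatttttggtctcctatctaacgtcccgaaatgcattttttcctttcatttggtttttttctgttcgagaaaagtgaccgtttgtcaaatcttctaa
sod-5 upstream: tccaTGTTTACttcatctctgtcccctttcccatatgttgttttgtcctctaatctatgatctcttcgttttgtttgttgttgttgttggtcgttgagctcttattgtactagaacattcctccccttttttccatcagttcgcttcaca
In the 150 bases upstream of ctl-1 (chrII:14306261-14306410, minus strand), ctl-2 (chrII:14302028-14302177, minus strand) and ctl-3 (chrII:14310780-14310929, minus strand), capitals mark the GATA-type word TGATAA and the repeat word GAGAGA on either strand.
ctl-1 upstream: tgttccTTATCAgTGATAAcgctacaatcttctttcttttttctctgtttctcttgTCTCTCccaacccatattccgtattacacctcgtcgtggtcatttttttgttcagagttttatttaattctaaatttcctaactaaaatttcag
ctl-2 upstream: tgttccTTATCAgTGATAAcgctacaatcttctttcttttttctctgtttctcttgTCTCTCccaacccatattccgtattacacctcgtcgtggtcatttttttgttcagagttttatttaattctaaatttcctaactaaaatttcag
ctl-3 upstream: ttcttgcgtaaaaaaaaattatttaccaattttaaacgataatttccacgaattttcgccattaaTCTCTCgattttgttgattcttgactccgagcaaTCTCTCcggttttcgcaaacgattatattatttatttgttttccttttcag
The ctl-1 and ctl-2 stretches are letter for letter the same, whereas the ctl-3 stretch differs from both. Outside the sod-1 stretch, bases that match TRTTKRY alone are not in capitals. Such matches occur in the sod-5 and ctl-3 stretches.

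PHA-4 lay at the promoters of 2 of the 8 genes, sod-1 and sod-2, in the thresholded set. Of all protein-coding genes, 12.9% had a thresholded summit in the same kind of window. In the pooled list 3 of the 8 had an entry, sod-1, sod-2 and sod-4, beside 58.2% of all protein-coding genes. Replicate 1 had entries at sod-1, sod-2, sod-4 and sod-5, which is 4 of 8 beside 71.3%, and replicate 2 at sod-1, sod-2, sod-3 and sod-4, which is 4 of 8 beside 68.8%. Both replicates had an entry at 3 of the 8, beside 55.7% of all genes. The 3 catalase genes had no entry in any list, which held for 14.9% of all genes. Their windows overlap in a row, so they form 1 continuous stretch and not 3 separate observations. The median window was 4013 bp among the 8 genes and 4027 bp among all protein-coding genes. No test was made of these counts, since the genes were named with earlier results known.

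**Figure D1:**
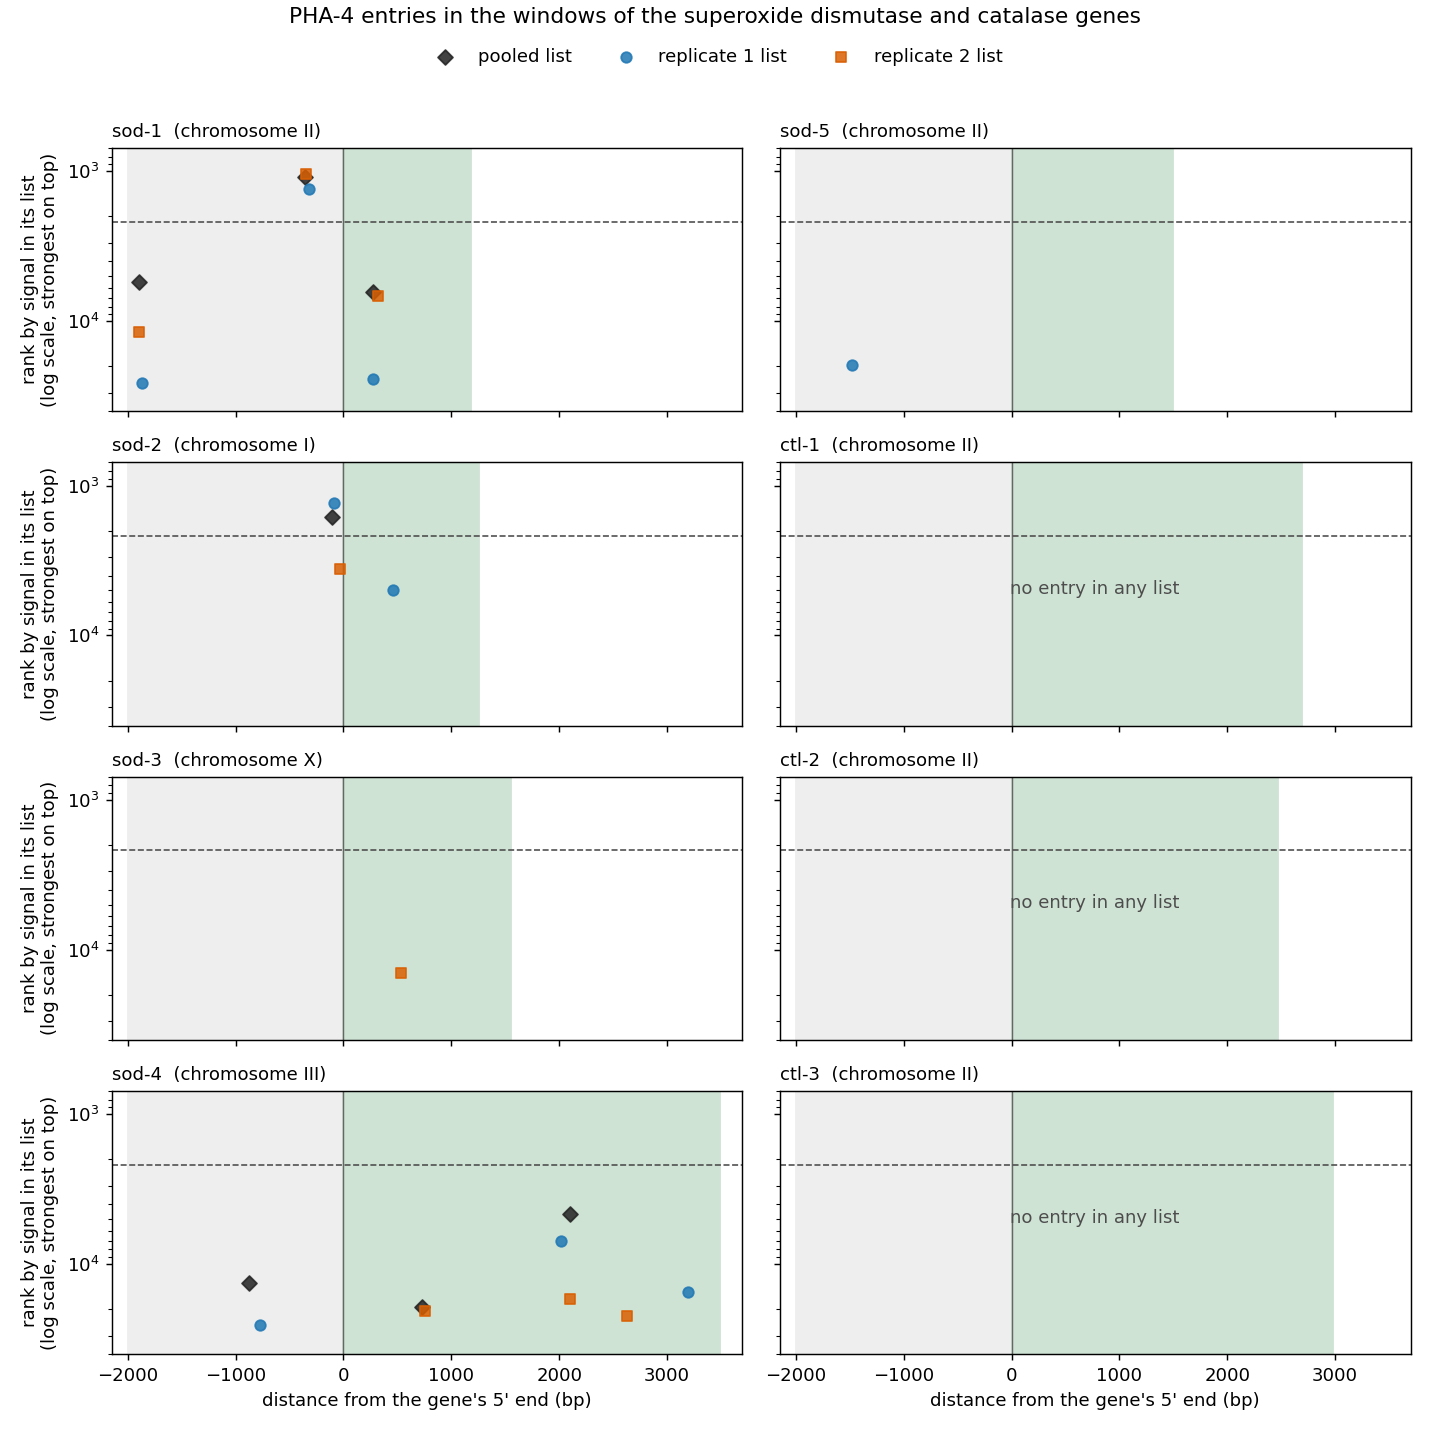
Entries in the window of each gene, with the distance of the summit from the gene's 5' end in bp on the x axis and the rank by signal within the entry's own list on a log y axis, strongest on top. Grey shading marks the 2000 bp upstream, green the gene, diamonds the pooled list, circles replicate 1, squares replicate 2, and the dashed line rank 2177, the last thresholded rank of the pooled list. At sod-1 and sod-2 the upstream pooled entries stand above the line (ranks 1098 and 1620), and the 3 catalase panels are empty.

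The cytosolic dismutase gene sod-1 (WBGene00004930, chromosome II, 6972706 to 6973887, minus strand) had the strongest entry of the 8 genes. It lay in intergenic sequence 352 bp upstream of the 5' end, at chrII:6974107-6974370, with a pooled signal of 54.3 and rank 1098. That is close to the middle of the thresholded set, whose median signal was 54.4. The matching entry had a signal of 22.8 in replicate 1 (rank 1305) and 32.2 in replicate 2 (rank 1050), with summits 21 bp apart at -324 and -345 bp. Each replicate thus placed it among its 2177 strongest entries. The larger rank was 1.24 times the smaller, and 84.4% of the thresholded entries found in both replicates had a wider rank ratio. No other protein-coding gene held the thresholded summit in its window, although the replicate summits fell just inside that of art-1, at -1976 and -1997 bp.

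Weaker entries lay on both sides of that peak. A pooled entry of signal 16.9 (rank 6398) lay at +273 bp, in an intron of the longer sod-1 transcript and outside the other transcript. Another of 18.5 (rank 5472) lay at -1898 bp. Both fell below the threshold. The entry at +273 bp had a signal of 4.45 in replicate 1 (rank 24216) and 11.7 in replicate 2 (rank 6805). At -1898 bp the signal was 4.27 in replicate 1 (rank 26032) and 9.04 in replicate 2 (rank 11823). Both weak sites were therefore near the bottom of the replicate 1 list and higher up in replicate 2.

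The mitochondrial manganese dismutase gene sod-2 (WBGene00004931, chromosome I, 8434550 to 8435807, plus strand) had 1 pooled entry, and it passed the threshold. It lay 107 bp upstream of the 5' end, from 8434311 to 8434574, with a pooled signal of 43.8 and rank 1620. Replicate 1 had a signal of 22.6 there (rank 1318) and replicate 2 a signal of 16.3 (rank 3579), with summits at -84 and -36 bp. The entry was among the 2177 strongest of replicate 1 and not among those of replicate 2. Its rank ratio between replicates was 2.72, which 34.6% of the thresholded entries exceeded, against a median ratio of 2.03. The summits lay 48 bp apart, a wider gap than at 80.7% of thresholded entries, whose median gap was 21 bp. Replicate 1 had a further entry of 9.50 (rank 4964) at +464 bp in coding sequence, with none in the pooled list or in replicate 2.

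The sod-2 gene lies inside dpt-1, a gene on the opposite strand (8429926 to 8435865), so its promoter peak is also within dpt-1, 1422 bp from that gene's 5' end. The nearest protein-coding 5' end is that of sod-2. Counting the 2177 strongest entries of each replicate, 13.3% of all protein-coding genes had a summit in the window in replicate 1 and 12.0% in replicate 2. On that scale sod-1 and sod-2 were found in replicate 1, and sod-1 alone in replicate 2.

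**Figure D2:**
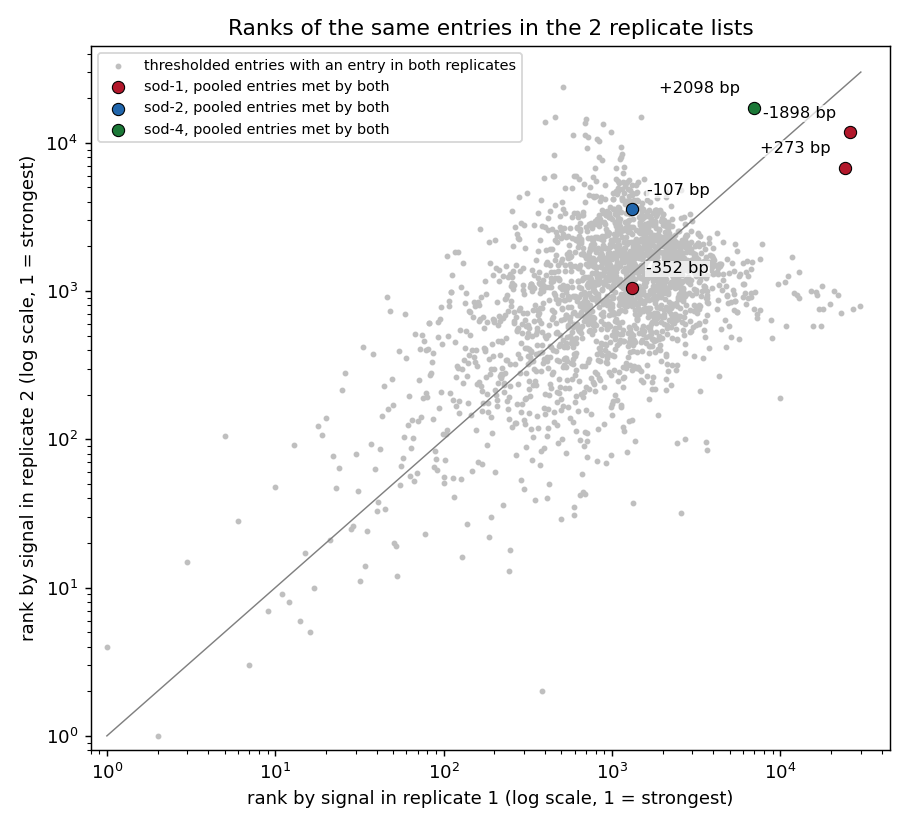
Rank by signal in replicate 1 (x, log scale) and replicate 2 (y, log scale) of the pooled entries of the 8 genes that both replicates met, labelled with the distance of the pooled summit from the 5' end. Grey points are the 2153 thresholded entries with an entry in both replicates, and the line marks equal rank. The sod-1 entry at -352 bp (1305 and 1050) lies near the line, the sod-2 entry (1318 and 3579) lies above it, and the weaker entries of sod-1 and sod-4 lie at ranks beyond most thresholded ones in at least 1 replicate.

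The extracellular dismutase gene sod-4 (WBGene00004933, chromosome III, 9496884 to 9500375, minus strand) had 3 pooled entries, all below the threshold. The strongest, with a pooled signal of 20.7 and rank 4647, lay at +2098 bp, in the 3' untranslated region of the 2 shorter transcripts and in an intron of the 2 longer ones. Its signal was 8.04 in replicate 1 (rank 6982) and 7.43 in replicate 2 (rank 17230), with summits 81 bp apart. An entry of 11.7 (rank 13362) at -875 bp was met by replicate 1 and not by replicate 2, and an entry of 9.81 (rank 19411) at +727 bp in coding sequence was met by replicate 2 and not by replicate 1. The -log10 q of these 3 pooled entries, in the order given, was 1.02, 0.112 and 0.0339. The nearest thresholded peak lay 21533 bp from the sod-4 5' end.

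The inducible mitochondrial gene sod-3 (WBGene00004932, chromosome X, 17092753 to 17094306, plus strand) had no pooled entry and none in replicate 1. Replicate 2 had 1 entry of 8.22 (rank 14375) at +536 bp, in sod-3 coding sequence. That summit also lies 10 bp inside C08A9.3, a gene on the opposite strand whose 5' end is closer. The nearest pooled summit to the sod-3 5' end was 4599 bp upstream, with a signal of 16.9. The minor cytosolic gene sod-5 (WBGene00007036, chromosome II, 4417633 to 4419130, plus strand) had no pooled entry and none in replicate 2. Its replicate 1 entry of 4.999 (rank 19593) at -1481 bp lies inside the neighbouring gene ZK430.5. For both genes, then, the evidence in the lists is 1 weak entry in 1 replicate, with a -log10 q of 0.335 at sod-3 and 0.0997 at sod-5.

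Forkhead words were not distributed among the 5 dismutase genes as the entries were. The sod-2 summit window of 201 bp holds TGTTTAC at -140 and -103 bp, the second centred 4 bp from the pooled summit, and TGTTTGC at -169 bp. The replicate summits lay downstream of these words, at -84 bp in replicate 1 and -36 bp in replicate 2. TGTTTAC stood in 8.22% of all thresholded summit windows, with a median distance of 26 bp to the summit, and 0.322% held it at 2 or more places. In upstream windows of that length its share was 3.49%. For TGTTTGC the shares were 13.5% of thresholded and 5.44% of upstream windows. The sod-1 summit window holds neither TGTTTAC nor TGTTTGC, and 1 match to TRTTKRY, which stood in 61.1% of thresholded windows and in 54% of upstream windows of that length. GAGAGA (47.7% of thresholded and 16.4% of upstream windows) and AGACGCA (20.99% and 3.53%) had no match in the windows of either thresholded summit. The weak sod-1 entry at +273 bp holds 1 TGTTTAC and 6 matches to GAGAGA, counted with overlaps. Its pooled rank of 6398 stands far below that of the sod-1 entry at -352 bp. All motifs were searched on both strands, and each match to TGTTTAC or TGTTTGC is also a match to TRTTKRY.

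Within 2000 bp upstream, TGTTTAC occurred at sod-2, sod-3 and sod-5 and not at sod-1, sod-4 or the catalase genes. It stood in 23.01% of all such upstream windows. The sod-3 words lie at -374 and -111 bp, the latter beside TGTTTGC at -128 bp, and the sod-5 word lies at -143 bp. No pooled or replicate entry lay at the sod-3 words or at the sod-5 word. In the 150 bases shown above, TGTTTAC stands in 2.68% of all upstream windows of that length, TGTTTGC in 4.06%, TGATAA in 17.9% and GAGAGA in 12.8%. TRTTKRY stands in 44.5% of them, with 4 matches at ctl-3, 3 at sod-5, 2 at sod-3 and 0 at ctl-1 and ctl-2. These matches describe letters only.

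The catalase genes ctl-2 (WBGene00000831, 14299556 to 14302027), ctl-1 (WBGene00000830, 14303568 to 14306260) and ctl-3 (WBGene00013220, 14307798 to 14310779) follow each other on the minus strand of chromosome II. None had an entry in the thresholded, pooled or replicate lists. The nearest pooled summit lay at 14299490, just past the 3' end of ctl-2 and within the gene Y54G11A.7, with a signal of 19.8 (rank 4951). Replicate 2 had an entry there of 14.3 (rank 4553) and replicate 1 did not. Upstream of the cluster the nearest pooled summit lay 7594 bp from the ctl-3 5' end, with a signal of 12.9 (rank 10923). The nearest thresholded peak, of signal 73.0, lay 38921 bp from that 5' end.

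Over whole windows, the catalase cluster differs from the dismutase loci in how much of its sequence is repeated. Reads from a repeated stretch can fit several places, and the sources used here do not say how such reads were treated. In the reference genome the bases upstream of the ctl-1 and ctl-2 5' ends are identical for 3923 bases in a row. This run is not intergenic throughout. Upstream of ctl-1 it extends into the ctl-3 gene, and upstream of ctl-2 into the ctl-1 gene. Of the 50-base words in the ctl-1 window 99.6% occur again in the genome, against 54.01% at ctl-2 and 48.2% at ctl-3. The share was 23.8% at sod-2, where the repeated words lie upstream of the peak, 2.22% at sod-4, 1.65% at sod-5, 0.171% at sod-3 and 0% at sod-1. In the 2000 bp upstream alone it was 39.2% at sod-2, more than the 0.923% at ctl-3. The pooled entries at sod-1, sod-2 and sod-4 held no repeated word. Among coding sequences, ctl-1 was 96.98% identical to ctl-3 and 84.7% to ctl-2, while sod-2 and sod-3 were 79.8% and sod-1 and sod-5 72.8% identical over aligned bases.

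**Figure D3:**
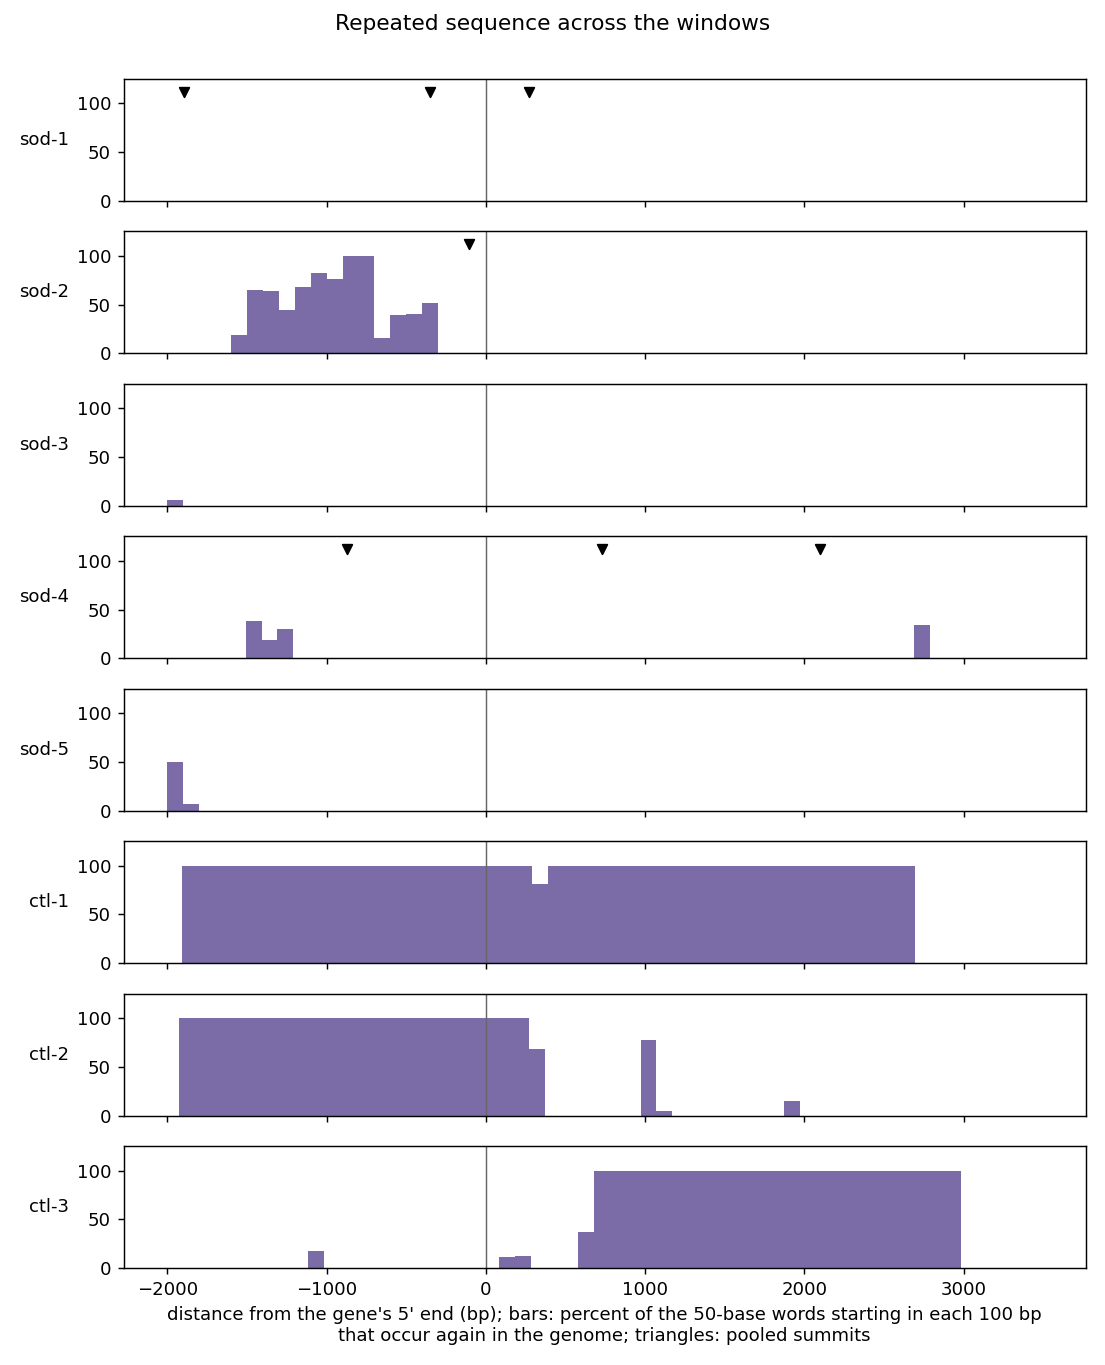
Repeated sequence across the window of each gene, with the distance from the 5' end in bp on the x axis and, as bars, the percent of 50-base words starting in each 100 bp that occur again in the genome. Triangles mark pooled summits. The ctl-1 window is repeated nearly throughout (99.6% of its words), the ctl-2 window in its upstream part and the ctl-3 window in the gene, and the triangles of sod-1, sod-2 and sod-4 lie over sequence with no repeated word.

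Windows with more repeated sequence had fewer entries in the whole data set. Of 15786 protein-coding genes with under 5% of the window repeated, 10.9% had no entry in any list. This share was 61.8% of 173 genes with 45 to under 60% repeated, the range of ctl-2 and ctl-3, and 98.9% of 183 genes with 90% or more, the range of ctl-1. Of the 2177 thresholded entries, 0 lay in sequence with 90% or more of its words repeated. At ctl-1, and over the 2000 bp upstream of ctl-2, of which 100% is repeated, PHA-4 that was not bound and reads that could not be placed cannot be told apart. The 2000 bp upstream of ctl-3 are different: 0.923% of their words are repeated and no list had an entry there. Among 16477 genes with under 5% of the 2000 bp upstream repeated, 25.6% had no upstream entry either, among them sod-3. Within the ctl-2 gene itself 16.05% of the words are repeated, and no list had a summit there.

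**Figure D4:**
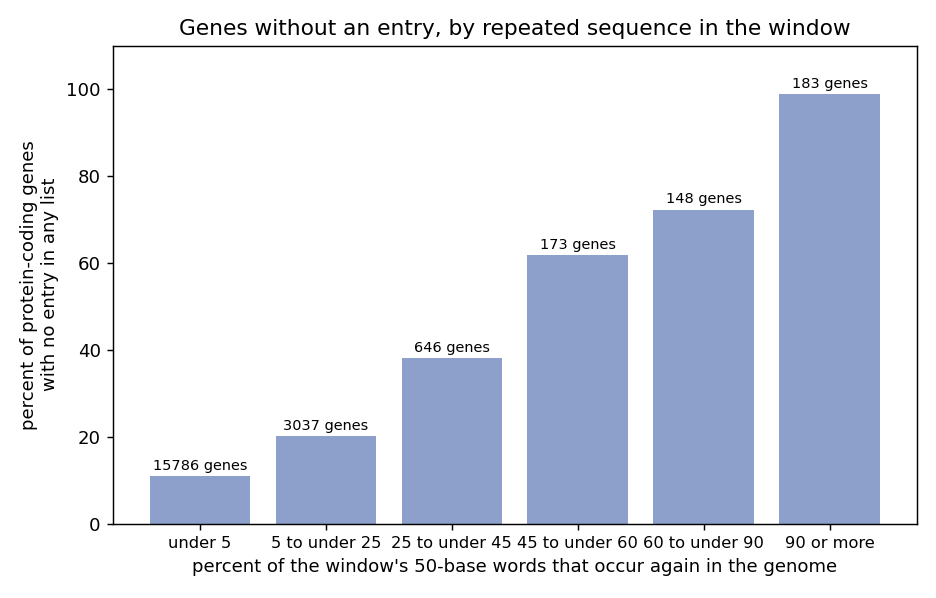
Percent of protein-coding genes with no entry in any list (y axis) by the percent of the window's 50-base words that occur again in the genome (x axis), with the number of genes above each bar. The bars rise from 10.9% of 15786 genes to 98.9% of 183 genes.

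Across the 8 genes the order of the strongest pooled signal was sod-1 (54.3), sod-2 (43.8) and sod-4 (20.7), followed by the 5 genes without an entry. The order of sod-1 and sod-2 rests on replicate 2 (32.2 and 16.3), since in replicate 1 they were nearly level (22.8 and 22.6). Of all protein-coding genes with a pooled entry, 88.0% had a strongest signal below that of sod-1, 82.8% below that of sod-2 and 60.9% below that of sod-4. By likeness of the strongest signals in the pooled and both replicate lists (Euclidean distance of log2 signals, 9526 genes with an entry in each list), the genes closest to sod-1 were rom-4 (distance 0.04, pooled signal 53.5), and F38B7.17 with F38B7.3, which share 1 peak (0.05, pooled signal 54.4). Those closest to sod-2 were dpt-1, which holds the same peak, W01D2.1 (0.05, pooled signal 42.4) and cblc-1 (0.07, pooled signal 43.2).

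The 28 other antioxidant genes that were looked up encode peroxiredoxins, glutathione peroxidases, thioredoxins, glutaredoxins, their reductases and the enzymes of glutathione synthesis, and also include msra-1, for a methionine sulfoxide reductase, and sesn-1, for sestrin. A thresholded summit lay in the window of 1 of them, the glutathione peroxidase gene gpx-4, beside 12.9% of all genes. That entry (pooled signal 97.04, rank 262) lay at -1462 bp from the gpx-4 5' end and closer to the 5' end of Y94H6A.3. In the pooled list 18 of the 28 genes (64.3%) had an entry, beside 58.2% of all protein-coding genes. The median of their strongest signals was 14.8, against 16.2 over all genes with a pooled entry. Outside the naming rule and named after its value was seen, gss-1, for glutathione synthetase, had a pooled signal of 22.1, between those of sod-2 and sod-4. That entry lay at -429 bp from the gss-1 5' end and closer to the 5' end of chch-3. Only gpx-4 exceeded sod-1 among these 28 genes.

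**Figure D5:**
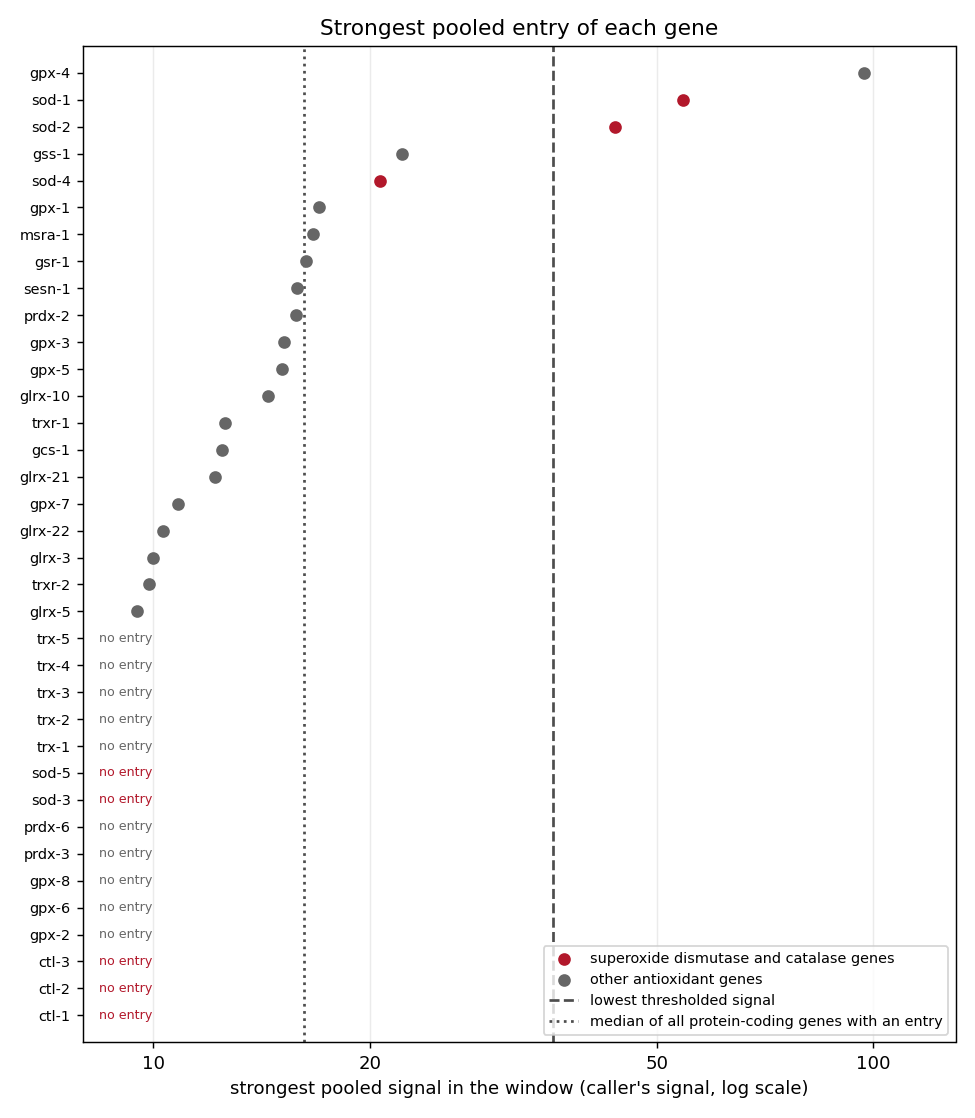
Strongest pooled signal in the window (x axis, log scale, the caller's signal) of the 8 superoxide dismutase and catalase genes (red) and 28 other antioxidant genes (grey), in order of signal. The dashed line marks the lowest thresholded signal (35.9) and the dotted line the median of all protein-coding genes with a pooled entry (16.2). gpx-4 (97.04), sod-1 (54.3) and sod-2 (43.8) lie right of the dashed line.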

How the data were processed

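Peaks of eGFP-tagged PHA-4 were analysed from narrowPeak lists on ce11. Per the README deposited with each sample, entries were called on each replicate and on both together and the thresholded set was derived from these lists by the irreproducible discovery rate. The peak caller, aligner, threshold and treatment of reads were not given in the sources used here. The deposited signal is the caller's value per entry and was used for ranks within a list. The deposited -log10 q is quoted as given. All 2177 thresholded entries were the strongest of the pooled list. The replicate lists had 0 identical entries. The ce10 lists and the controls were not analysed here.

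Gene models were those of Ensembl release 115 (WBcel235), and sequences from RefSeq's WBcel235 genome. All genes and entries lay within the chromosome lengths of that genome. Replicate entries were matched to pooled ones by an overlap of 1 bp or more, taking the strongest. A word counted as repeated if it occurred more than once on either strand. Coding identity came from global alignment of the longest coding sequences. Window assignment and motif search were checked on planted positions. With 1 group and 2 replicates, no test was made between samples, and the lists give no depth, so precision rests on the agreement of the replicates. The genes, lists, windows and motifs were chosen with earlier results of these data known, and the classes of repeated sequence after the values of these genes were seen. Named genes were the 8 genes, others at their thresholded peaks, other antioxidant genes with a thresholded peak (up to 6), and for sod-1 and sod-2 the 3 genes closest in signal. Outside this rule, art-1, C08A9.3, ZK430.5, Y54G11A.7, Y94H6A.3, chch-3 and gss-1 were named after their values were seen, all but gss-1 as neighbours that share or adjoin an entry. Tools were Python 3.11.15, numpy 2.4.6, pandas 2.3.3 and matplotlib 3.10.9.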

Additional observations from a re-analysis of the deposited data

How the results depend on the processing

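The thresholded call at 2 of the 8 genes held with 500, 1000 and 5000 bp upstream, with overlap in place of summits, with the nearest 5' end only and with promoters to 200 bp downstream. It fell to 0 genes and 0 entries among the 1088 strongest thresholded entries, just outside which sod-1 (rank 1098) stands, where all genes fell from 2570 to 1381. With the nearest 5' end only, all genes came to 1615. They came to 1776 with 500 bp upstream, 2081 with 1000 bp, 3697 with 5000 bp, 2683 with overlap and 2222 with promoters only. The share over all genes thus moved while the count at the 8 genes stayed at 2. From 1 replicate's strongest entries, member genes and entries ranged from 1 (replicate 2, sod-1) to 2 (replicate 1). Genes with a pooled entry, 3, were 4 in either replicate alone. They were also 4 with 5000 bp upstream, which added sod-3 (16.9), and with overlap, which added ctl-2 through the entry past its 3' end (19.8). With promoters only, pooled entries fell from 7 to 4 and the sod-4 signal to 11.7. Genes among the strongest entries of both replicates were 1 instead of 3. Of the 7 pooled summits, 5 were met by both replicates, and 3 with summits within 50 bp. Those left were all at sod-1. At sod-2 the replicate 2 summit (-36 bp) and at sod-4 the replicate 1 summit (+2019 bp) lay more than 50 bp from the pooled summit. No share over all genes was computed for pooled entries under other windows or for genes among the strongest entries of both replicates. Nor was a share over all pooled entries computed for summits met by both replicates. Of the 7 pooled summit windows, those with TRTTKRY fell from 5 to 3 with 50 bp on each side. The share over all thresholded summit windows fell likewise from 61.1% to 42.5%, and over upstream windows of equal length from 54% to 32.1%. With words of 36 bases the repeated share was 28.6% at sod-2, 1.22% at sod-3, 3.65% at sod-4, 2.46% at sod-5, 99.9% at ctl-1, 55.5% at ctl-2 and 50.4% at ctl-3. Chosen after seeing the data, other antioxidant genes with a thresholded entry were 0 with 1000 bp upstream or the nearest 5' end only, 2 with 5000 bp, and 1 from either replicate. No paired analysis was possible because the samples form 1 group.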
